A study of Mus musculus with 51 samples.

Results

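St18, Eml6, Ppp1r3b, Sema3g, Slit2, Dach1 and Nptx1 are 7 of the 40077 mouse genes in the deposited tables. Most of them are known from the nervous system, and the group was chosen by the fold change of their RNA between B16-BL6 tumors with and without depletion of Uba1. St18, Eml6 and Ppp1r3b were higher in Uba1-depleted B16-BL6 tumors, and Sema3g, Slit2, Dach1 and Nptx1 were lower. Since the B16-BL6 values made the choice, they are described here with no test. The question put to the rest of the data was whether the same differences were seen in Myc-CaP, the other tumor model.

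Uba1 encodes the main enzyme that activates ubiquitin, the first step in tagging proteins for degradation or signaling. Bulk RNA was sequenced from 51 libraries in 16 groups. B16-BL6 is a mouse melanoma line, and its tumors were grown under the skin of female C57BL/6 mice. Myc-CaP is a mouse prostate cancer line driven by Myc, and its tumors were grown in male FVB mice, with mice of both strains aged 6 to 8 weeks. Control B16-BL6 tumors carried a nontargeting guide, sgNC (n = 3, numbered 1, 2 and 4), and depleted tumors carried a guide against Uba1, sgUba1 (n = 4). Myc-CaP tumors were sgNC (n = 3), sgUba1 (n = 7), empty vector EV (n = 3), Uba1 OE with Uba1 driven by a CMV promoter (n = 4), Vehicle (n = 6), and TAK-243 (n = 5), an inhibitor of UBA1 injected at 25 mg per kg. Cultured Myc-CaP cells formed 8 groups of 2 libraries. One experiment held NC and sgUba1 cells, each with PBS or IFN-γ. The other held cells labelled Control, IFN-γ, 50 nM TAK-243, and TAK-243 plus IFN-γ.

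The sgRNA sublines were grown from single sorted cells, so an effect of Uba1 depletion and a difference between clones cannot be told apart in either model. Tumors were placed on both flanks, so 2 tumors may come from 1 mouse, and p-values measure the spread between these libraries. Depletion was partial. In B16-BL6, Uba1 was at 410, 455 and 414 CPM (counts corrected for library size) in the control tumors and at 208, 220, 228 and 247 CPM in the sgUba1 tumors, 1.89-fold lower. In Myc-CaP it was at 320, 325 and 337 CPM in the control tumors and at 197, 202 and 211 CPM in tumors labelled sgUba1 1 to 3, but at 373, 361, 368 and 383 CPM in tumors labelled sgUba1 4 to 7. The Uba1 RNA of these last 4 libraries was thus not lower than in the controls. The study judged depletion of its cell lines by immunoblot and Sanger sequencing. By immunohistochemistry it also reports fewer ubiquitinated proteins in Uba1-depleted Myc-CaP tumors, without saying whether these were the sequenced tumors. The data used here hold no protein level. RNA alone therefore does not show whether UBA1 protein was depleted in these 4 tumors. The levels of the 4 members tested there are given tumor by tumor below. Means, ranges and fold changes for these Myc-CaP tumors cover all 7. No test was run on either set alone, since that would regroup tumors by a measured value.

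Axon guidance cues steer growing nerve fibers. SLIT proteins are secreted and repel axons through ROBO receptors, and class 3 semaphorins, which include Sema3g, are secreted cues that act through neuropilins and plexins. Both families also act on blood vessels and on migrating cells outside the nervous system. The melanocyte, from which melanoma arises, derives from the neural crest and so shares an origin with peripheral neurons and glia.

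The other genes have different roles. St18 encodes a zinc finger transcription factor of the MYT family. Eml6 encodes a member of the EML family of microtubule-associated proteins. Dach1 encodes a transcription cofactor that works with EYA proteins in eye, limb and neural development. Nptx1 encodes a neuronal pentraxin, a secreted protein that gathers AMPA-type glutamate receptors at synapses. Ppp1r3b encodes a subunit that brings protein phosphatase 1 to glycogen and favors glycogen synthesis. It is better known from liver and muscle than from neurons.

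The guides that define the depleted groups are printed because every sgUba1 comparison rests on them. The sample labels do not say which guide a library carried. On GRCm38, sgUba1 #1 matched exon 5 of the transcript Uba1-201 at chrX:20669136-20669155, on the strand opposite to the gene, and sgUba1 #2 matched exon 6 at chrX:20670263-20670282, on the strand of the gene. Both matches had 0 mismatches.
sgUba1 #1: taccaatgtcctcctcccga
sgUba1 #2: tagccgtggtatcaagctag
In the annotated transcripts of the 7 genes, the closest match beside an NGG motif had 7 mismatches (sgUba1 #2 in Nptx1) and the other members' closest matches had up to 9. Introns and promoters were not searched.

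The genes lie on 5 chromosomes of GRCm38, and all are annotated as protein-coding. St18 is at chr1:6487231-6860940 on the plus strand, Slit2 at chr5:47983138-48307733 on the plus strand, and Ppp1r3b at chr8:35375739-35388139 on the plus strand. Eml6 is at chr11:29743048-30026033 and Nptx1 at chr11:119538719-119547753, both on the minus strand. Sema3g is at chr14:31217860-31230352 on the plus strand and Dach1 at chr14:97786853-98169765 on the minus strand. No pair lies within 1 Mb of each other.

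RefSeq (GRCm38.p6) gave the stretch before the gene start for 4 of the 7 genes. Those of Eml6 and Slit2 are shown because in Myc-CaP every tumor labelled sgUba1 lay above every control for these 2 genes, the direction of B16-BL6 for Eml6 and the opposite one for Slit2. Capitals mark a TATA box (searched as TATAAA) or a GC box (searched as GGGCGG), on either strand. The stretches are chr11:30026034-30026283 (minus strand) and chr5:47982905-47983137 (plus strand).
Eml6: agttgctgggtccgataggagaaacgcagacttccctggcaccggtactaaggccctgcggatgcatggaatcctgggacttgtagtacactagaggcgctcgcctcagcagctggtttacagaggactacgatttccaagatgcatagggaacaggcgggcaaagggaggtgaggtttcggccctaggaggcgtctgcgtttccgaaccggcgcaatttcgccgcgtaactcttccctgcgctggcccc
Slit2: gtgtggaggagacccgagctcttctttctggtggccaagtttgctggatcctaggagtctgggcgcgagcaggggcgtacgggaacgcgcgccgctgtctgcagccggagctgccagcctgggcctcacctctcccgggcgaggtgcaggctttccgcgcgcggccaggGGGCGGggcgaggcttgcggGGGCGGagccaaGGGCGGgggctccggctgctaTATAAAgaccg
The Eml6 stretch held 18 CG dinucleotides and none of the searched motifs, and the Slit2 stretch held 23 CG dinucleotides, 1 TATA box and 3 GC boxes. Over 32851 promoters the median was 6 CG dinucleotides, 12.4% held the TATA box and 32.7% held the GC box. The E-box CACGTG, held by 6.0% of promoters, was in neither stretch. The same was true of CATGTG, an E-box that MITF proteins bind, held by 12.3%.

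St18 showed the widest difference of the group in B16-BL6. It was at 0.563, 0.781 and 1.43 CPM in the control tumors, from 17 to 41 counts, and at 24.4, 21.9, 15.0 and 21.2 CPM in the sgUba1 tumors, from 393 to 697 counts. All 4 sgUba1 tumors were thus far above the control tumors, and the fitted difference was 22.6-fold, a log2 fold change of 4.50 (SE 0.28). In TPM, the scale that corrects for gene length, St18 went from 0.165 to 0.376 TPM in the controls to between 5.35 and 9.54 TPM.

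Eml6 was the most abundant of the 7 genes per length in the sgUba1 tumors, at 16.1 to 24.6 TPM against 4.16 to 5.01 TPM in the controls. In CPM it was at 24.7, 24.5 and 27.7 in the control tumors and at 130 (129.94), 121.5, 120.7 and 87.9 in the sgUba1 tumors. The 3 controls were close together and all 4 sgUba1 tumors were higher, with a log2 fold change of 2.16 (SE 0.13), or 4.48-fold. Ppp1r3b, the glycogen-targeting subunit, was at 2.05, 1.04 and 1.98 CPM in the control tumors and at 6.02, 5.37, 10.3 and 4.56 CPM in the sgUba1 tumors. Its log2 fold change was 1.97 (SE 0.33), and sgUba1 tumor 3 stood above the other 3.

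The secreted guidance cues were lower in the sgUba1 tumors. Sema3g was at 29.9, 11.8 and 32.1 CPM in the control tumors and at 3.36, 3.69, 2.05 and 3.19 CPM in the sgUba1 tumors. Control tumor 2 was the lowest of the controls and still lay above every sgUba1 tumor, and the difference was 7.96-fold, with a log2 fold change of −2.99 (SE 0.32). Slit2 was at 10.2, 9.77 and 6.71 CPM in the control tumors and at 2.17, 2.01, 2.93 and 1.66 CPM in the sgUba1 tumors, with a log2 fold change of −2.03 (SE 0.21), or 4.07-fold lower. Its 2 groups did not overlap.

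Dach1 and Nptx1 were low per length in all B16-BL6 tumors and lower still with sgUba1. Dach1 was at 4.27, 6.45 and 4.69 CPM in the control tumors and at 1.26, 1.04, 0.723 and 0.880 CPM in the sgUba1 tumors, a log2 fold change of −2.40 (SE 0.22). Nptx1 was at 11.6, 6.62 and 4.28 CPM in the control tumors and at 1.12, 1.54, 2.13 and 0.619 CPM in the sgUba1 tumors, a log2 fold change of −2.48 (SE 0.40). The Nptx1 controls were spread more widely than those of Dach1, and for both genes every sgUba1 tumor was below every control. In the sgUba1 tumors these levels rested on 19 to 36 counts for Dach1 and 19 to 56 for Nptx1.

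**Figure D1:**
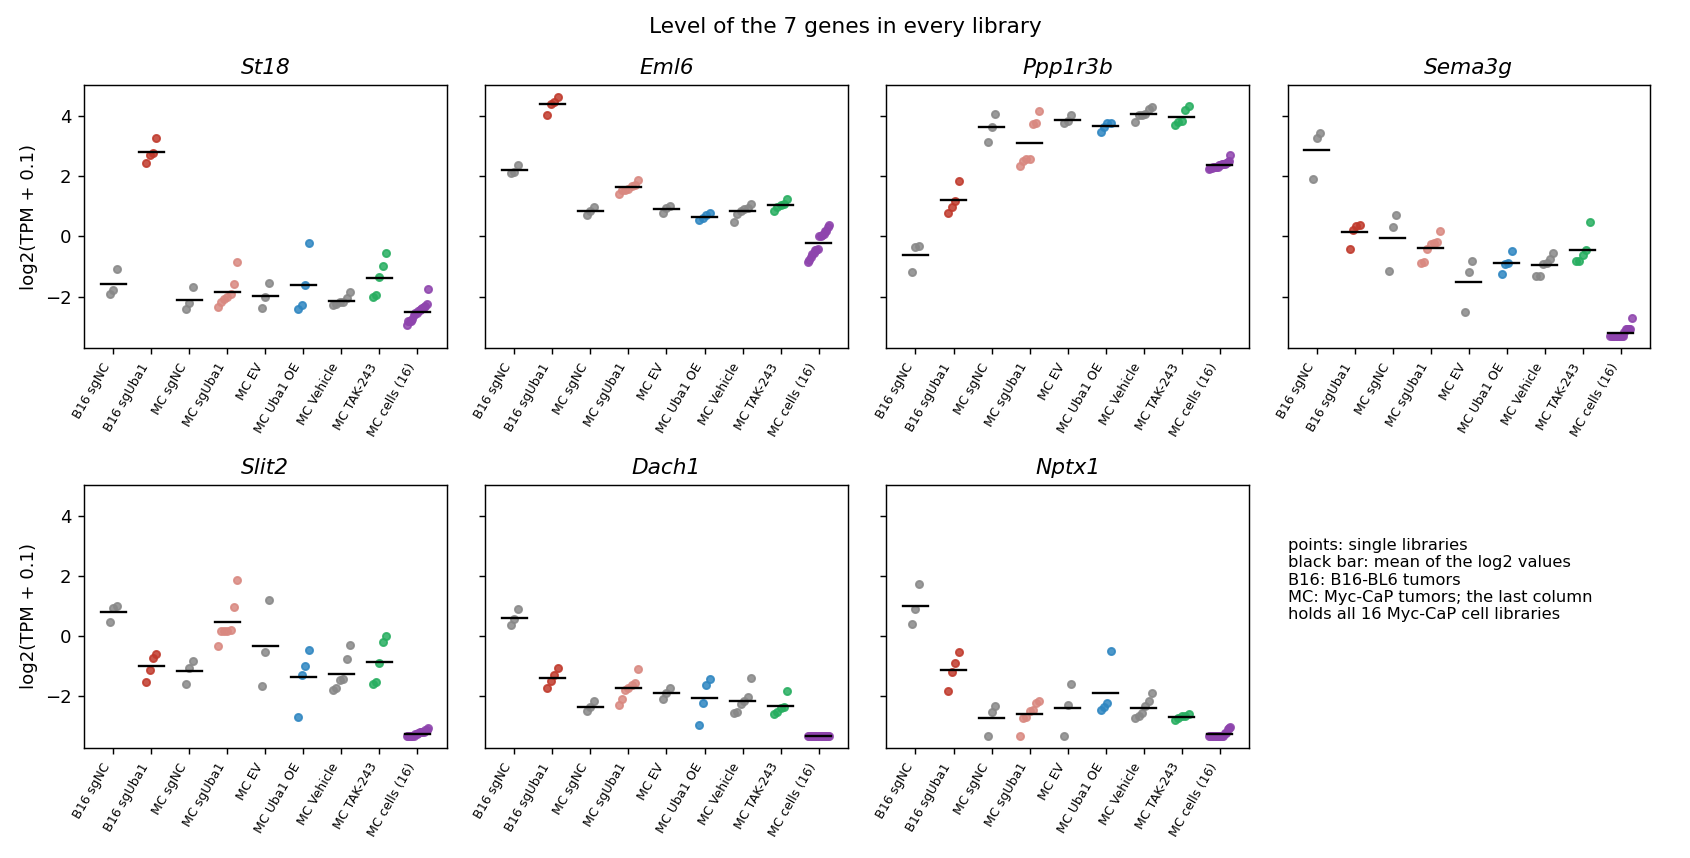
Level of each of the 7 genes, as log2(TPM + 0.1), in each tumor group and in the 16 cell libraries together (MC, Myc-CaP), with 1 point per library and a bar at the mean of the log2 values. The B16-BL6 sgUba1 tumors lie apart from the B16-BL6 controls for each gene, for example at 5.35 to 9.54 TPM against 0.165 to 0.376 TPM for St18, and the cells are near the floor for Sema3g, Slit2, Dach1 and Nptx1.

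Over the whole table, 0.724% of 17539 tested genes had an adjusted p under 0.05 in B16-BL6 (edgeR's quasi-likelihood fit, Benjamini-Hochberg over all genes), and 15.3% had groups that did not overlap. The 7 genes are among both sets because they were chosen on this difference, so nothing is read from their membership. Leaving out any 1 of the 7 tumors kept all 7 log2 fold changes past 1 in size. Ppp1r3b and Nptx1 left the first set when sgNC 1, sgNC 2, sgUba1 1 or sgUba1 2 was left out. These fits use the values that made the choice, so they are no test of the 7 genes. In bulk tumors fewer cells of a type and less RNA per cell cannot be told apart.

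The B16-BL6 libraries are labelled Epithelial, but they carried melanocyte markers. The summed level of 13 melanocyte markers was 12131 to 13005 TPM in the control tumors and 10989 to 12529 TPM in the sgUba1 tumors, and all 13 were detected, while prostate and epithelial markers summed to at most 1.17 TPM. None of the 13 melanocyte markers passed. Their change was positive in 2 of 13, with a median log2 fold change of −0.24 beside 0.01 over all tested genes. Pan-neuronal markers summed to 73.4 to 84.5 TPM in the controls and 61.1 to 72.3 TPM in the sgUba1 tumors, mainly through the tubulin Tubb3 (mean 60.7 and 43.4 TPM) and the microtubule protein Map2 (16.4 and 22.5 TPM). The other 13 of 15 markers had group means of at most 0.628 TPM, that of Dcx, and the neuronal RNA-binding protein gene Elavl4 was at 0. Of 6 tested pan-neuronal markers 0 rose and 1 fell, Tubb3, with a log2 fold change of −0.54 and an adjusted p of 0.0386 that held in 2 of 7 fits that left out 1 tumor. The change was positive in 4 of the 6, with a median log2 fold change of 0.26 beside 0.01 over all tested genes, of which 0.724% passed. The 11 tested neural crest and Schwann cell markers held 0 that passed.

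The marker sums of other cells in the B16-BL6 tumors are given because the 7 genes are also expressed outside tumor cells. Endothelial markers summed to 95.5 to 104 TPM in the controls and 91.6 to 113 TPM in the sgUba1 tumors, and fibroblast markers to 123 to 304 and 135 to 251 TPM, so both overlapped. Myeloid markers summed to 124 to 216 TPM and 214 to 278 TPM, and T and NK cell markers to 6.35 to 8.64 TPM and 8.99 to 11.9 TPM. Muscle markers summed to 13.1 to 75.5 and 15.7 to 269 TPM, and adipocyte markers to 48.5 to 62.7 and 17.9 to 75.5 TPM. None of the tested endothelial (12), fibroblast (10), T and NK cell (5), myeloid (10), muscle (9) or adipocyte (7) markers passed the threshold. Their directions were not mixed in 4 of these lists. All 10 myeloid (median log2 fold change 0.62), all 5 T and NK cell (0.78) and all 9 muscle markers (1.28) had positive changes, and 0 of 7 adipocyte markers did (−0.63), beside 0.01 over all tested genes. Positive changes were held by 9 of 10 fibroblast markers (0.12) and 4 of 12 endothelial markers (−0.06). The part of these cells in the levels of the 7 genes was not tested.

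The families of the 7 genes were examined with the 7 left out, in B16-BL6, where 0.724% of all tested genes passed. Of 7 other tested SLIT-ROBO genes 0 rose and 1 fell, and that gene was Robo2, which encodes a receptor for SLIT proteins. Robo2 was at 6.79, 7.72 and 5.63 CPM in the control tumors and at 0.735, 0.168, 0.723 and 0.424 CPM in the sgUba1 tumors, with a log2 fold change of −3.73 (SE 0.33, adjusted p = 5.49e-04). It passed in each of 7 fits that left out 1 tumor. A gene for another SLIT receptor, Robo1, was at a mean of 298 CPM in the controls and 278 CPM in the sgUba1 tumors, a difference of −0.10 on the log2 scale (adjusted p = 0.475). The median log2 fold change of the 7 SLIT-ROBO genes was 0.13, beside 0.01 over all tested genes.

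Among 13 other tested class 3 semaphorins and receptors 0 rose and 1 fell, where 0.724% of all tested genes passed. Sema3e, a semaphorin that acts on blood vessels, went from a mean of 3.91 to 1.59 CPM (log2 fold change −1.31, adjusted p = 0.0386), and passed in 1 of 7 fits that left out 1 tumor. Among 4 tested pentraxins and AMPA receptor subunits 1 fell, Gria4, an AMPA receptor subunit, from 10.9 to 5.27 CPM (log2 fold change −1.04, adjusted p = 0.00271, 7 of 7 such fits). Among 9 other tested retinal determination genes, the network to which Dach1 belongs, 1 rose, Eya1, a phosphatase and transcription cofactor, from 187 to 262 CPM (log2 fold change 0.48, adjusted p = 0.0138, 5 of 7 such fits). None of 5 tested EML genes beside Eml6 and none of 11 tested glycogen genes beside Ppp1r3b passed. No other MYT family gene passed the filter on low counts, so St18 has no tested relative in these tumors.

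The surroundings of each gene were compared in the same way. Within 1 Mb of the 7 starts, 110 other genes were tested in B16-BL6 and 1 passed, where 0.724% of all tested genes did. That gene, Fem1al, lies inside Eml6. It is at chr11:29822395-29825668 on the same strand, a single exon of 3274 bases in the intron between exons 13 and 14 of the transcript Eml6-201, 637 bases from exon 14, and it overlaps 0 exons of Eml6. Fem1al was at 1.52, 1.59 and 1.11 CPM in the control tumors and at 9.23, 8.02, 7.69 and 5.31 CPM in the sgUba1 tumors (log2 fold change 2.42, SE 0.22, adjusted p = 6.63e-04, passing in 7 of 7 fits that left out 1 tumor). Reads of Fem1al and of unspliced Eml6 RNA cannot be told apart here. Since Eml6 was chosen on this contrast, the Fem1al result is not a separate test. Rtn4, a gene that overlaps Eml6 on the opposite strand, differed by −0.12 on the log2 scale (adjusted p = 0.639). The 5 tested neighbors of St18, the 11 of Ppp1r3b, the 36 of Sema3g and the 31 of Nptx1 held 0 that passed, and Slit2 (2) and Dach1 (5) had few tested neighbors.

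**Figure D2:**
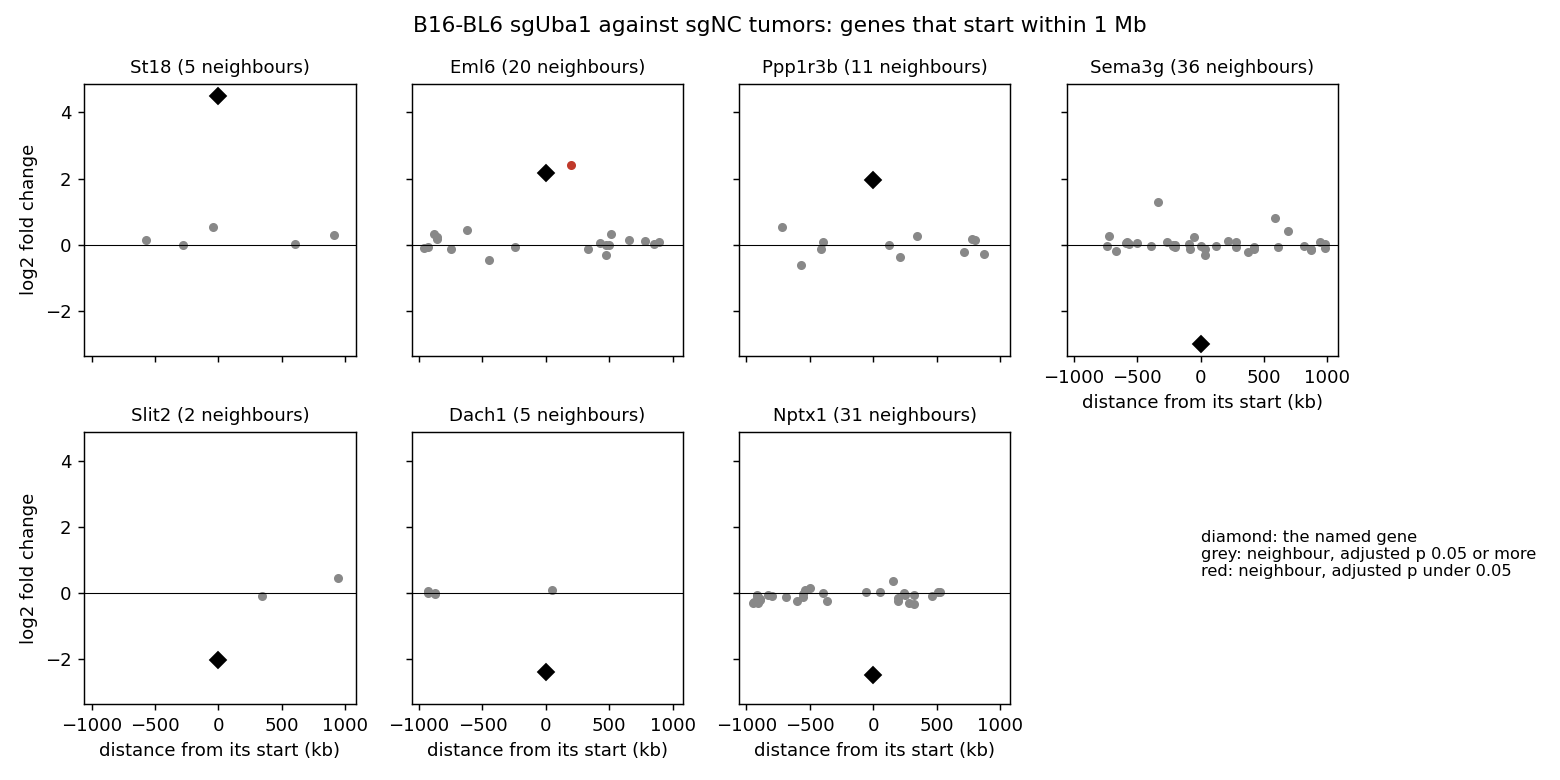
Log2 fold change in B16-BL6 sgUba1 against sgNC tumors of tested genes within 1 Mb of each of the 7 starts, by distance from the start of the member gene, with the named gene as a diamond and genes past the threshold in red. The neighbors gather around 0, and 1 of 110, Fem1al inside Eml6, passed the adjusted p threshold, where 0.724% of all tested genes did. Its reads cannot be told apart from unspliced Eml6 RNA.

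Per length, the control tumors of the 2 models differed in which of the 7 genes they expressed. Control B16-BL6 tumors had Sema3g (3.65 to 10.6 TPM) and Eml6 (4.16 to 5.01 TPM) as the highest of the group, followed by Nptx1 (1.22 to 3.18 TPM), Slit2 (1.298 to 1.90 TPM) and Dach1 (1.20 to 1.76 TPM), whose ranges overlapped, and then by Ppp1r3b and St18. The 12 control Myc-CaP tumors (sgNC, EV and Vehicle) had Ppp1r3b first at 8.68 to 19.4 TPM and Eml6 at 1.29 to 1.98 TPM, a range that overlapped those of Slit2 (0.188 to 2.20 TPM) and Sema3g (0.0757 to 1.55 TPM). St18 was at 0.088 to 0.243 TPM, Dach1 at 0.0723 to 0.277 TPM and Nptx1 at 0 to 0.236 TPM in them. St18, Dach1 and Nptx1 did not pass the filter on low counts in the Myc-CaP sgRNA experiment, which left 4 of the 7 genes to test there.

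Eml6 was higher in Myc-CaP tumors that carried the sgUba1 label, the direction it had in B16-BL6. It was at 9.27, 9.57 and 8.20 CPM in the controls and at 13.9, 13.9, 12.6, 18.3, 18.3, 20.1 and 15.7 CPM in tumors labelled sgUba1 1 to 7. All 7 lay above all 3 controls, and the log2 fold change was 0.84 (SE 0.17, 95% confidence interval 0.46 to 1.21), with an adjusted p of 0.0358 by edgeR's quasi-likelihood test. Eml6 was thus 1 of 4 tested members that passed, where 3.04% of 16202 tested genes did, and 1 of 2 whose groups did not overlap, where 10.9% of tested genes did not.

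The Eml6 call rested on single tumors. The adjusted p ran from 0.0271 to 0.127 over 10 fits that left out 1 tumor, and the call was lost without any 1 of the 3 controls or of tumors labelled sgUba1 1, 4, 5, 6 and 7. The tumors in which Uba1 was low, 1 to 3, had Eml6 at 12.6 to 13.9 CPM, and those in which it was at the control level, 4 to 7, had it at 15.7 to 20.1 CPM. Fem1al was at 0.515, 0.705 and 0.724 CPM in the controls and at 1.13, 0.716, 1.44, 0.885, 1.41, 0.932 and 0.751 CPM in tumors labelled sgUba1 1 to 7 (log2 fold change 0.68, SE 0.32, adjusted p = 0.226).

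Slit2 lay on opposite sides of the controls in the 2 models, without passing in Myc-CaP. In Myc-CaP it was at 1.37, 1.91 and 2.33 CPM in the controls and at 5.02, 3.10, 5.20, 6.04, 4.55, 5.38 and 11.6 CPM in tumors labelled sgUba1 1 to 7. All 7 lay above the controls, with tumor 7 highest, and both the low-Uba1 and the control-level tumors shared the direction. The log2 fold change was 1.64 (SE 0.39, 95% confidence interval 0.77 to 2.51) and the adjusted p of 0.0515 missed the threshold. Of 10 fits that left out 1 tumor it passed in 1, without tumor labelled sgUba1 2 (adjusted p = 0.0342), and the adjusted p ran up to 0.184. Of 10 other settings it passed in 2, by DESeq2 (0.00194) and with at least 10 counts required in every library (0.0480), and the log2 fold change was as low as 0.79 on the log2(TPM + 1) scale. Robo2, which fell with Slit2 in B16-BL6, had 0 to 6 counts in these Myc-CaP tumors and was not tested. The difference in the Slit2 change between the models was not tested.

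Markers of other cells also varied among these Myc-CaP tumors. Fibroblast markers summed to 231, 446 and 273 TPM in the controls and to 511, 472, 969, 274, 295, 325 and 467 TPM in tumors labelled sgUba1 1 to 7. Myeloid markers summed to 298 to 555 TPM and 504 to 892 TPM. Of these 10 markers 3 rose, where 3.04% of all tested genes passed. Among the 3 were Cd68 (log2 fold change 0.83) and Adgre1 (1.15), both macrophage markers. These 3 calls were not examined with 1 tumor left out. Endothelial markers summed to 104 to 134 TPM and 90.7 to 120 TPM. Cultured Myc-CaP cells had at most 4 counts of Slit2. The part of other cells in the Slit2 level was not tested.

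Sema3g and Ppp1r3b did not pass in Myc-CaP sgRNA tumors. Sema3g was at 1.03, 4.33 and 3.30 CPM in the controls and at 2.03, 2.07, 2.80, 1.45, 1.41, 2.30 and 1.97 CPM in tumors labelled sgUba1 1 to 7, all inside the range of the controls. Its log2 fold change was −0.52 (SE 0.37, adjusted p = 0.427). The 95% confidence interval of −1.33 to 0.30 leaves out the −2.99 seen in B16-BL6. Leaving out 1 tumor gave −0.93 (without sgNC 1) to −0.12 (without sgNC 2), and 0 of 10 such fits passed. Ppp1r3b was at 35.0, 22.96 and 46.0 CPM in the controls, at 33.5, 46.0 and 33.6 CPM in tumors labelled sgUba1 1 to 3, and at 14.6, 16.8, 16.999 and 17.2 CPM in tumors 4 to 7. The first 3 overlapped the controls and the last 4 lay below them. The log2 fold change of −0.44 (SE 0.37, 95% confidence interval −1.27 to 0.38, adjusted p = 0.509) does not cover the 1.97 seen in B16-BL6.

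**Figure D3:**
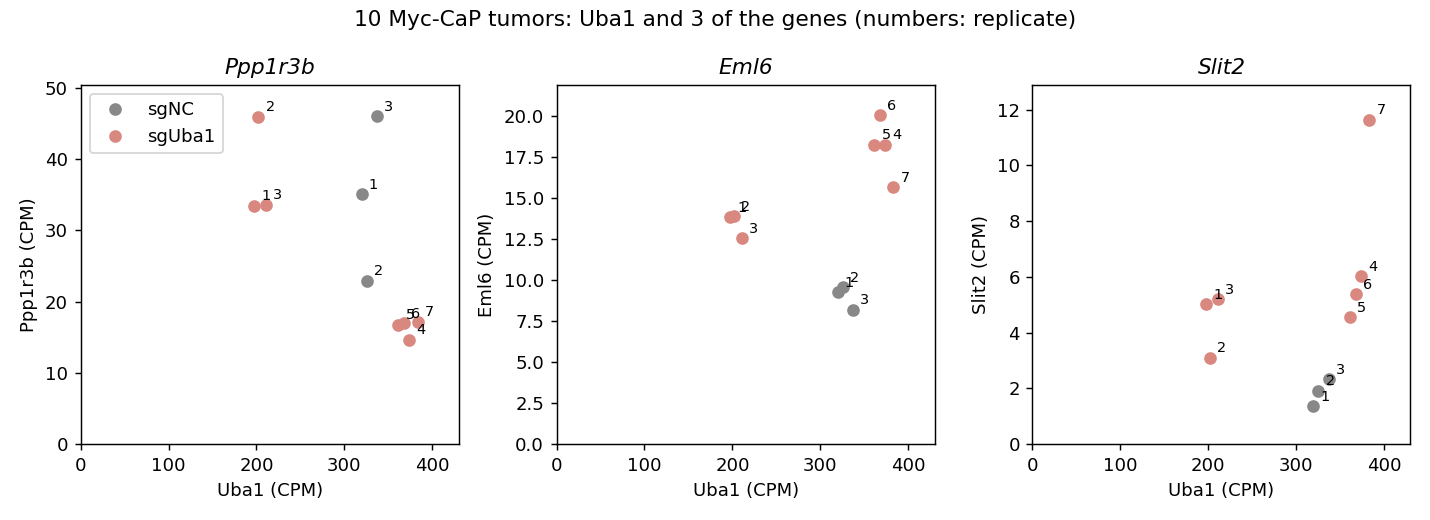
Level of Ppp1r3b, Eml6 and Slit2 against the level of Uba1, both in CPM, in each Myc-CaP sgNC tumor and each tumor labelled sgUba1, with tumor numbers beside the points. Tumors 1 to 3 lie at 197 to 211 CPM of Uba1 and tumors 4 to 7 at 361 to 383 CPM, and Ppp1r3b is at 33.5 to 46.0 CPM in the first set and 14.6 to 17.2 CPM in the second.

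The 3 genes that could not be tested in this experiment were near the limit of detection. St18, which was the most different in B16-BL6, had 4 to 9 counts in the controls and 4 to 14 counts in the tumors labelled sgUba1, or at most 1.12 CPM. Dach1 had 3 to 5 counts and 4 to 18 counts, and in 6 of the 7 tumors its CPM was above every control, the direction opposite to that in B16-BL6. Nptx1 had 0 to 4 and 0 to 6 counts. Without the filter on low counts the log2 fold changes were 0.39 for St18 (adjusted p = 0.658), 1.14 for Dach1 (adjusted p = 0.264) and 0.26 for Nptx1 (adjusted p = 0.893). A change of Dach1 or Nptx1 as in B16-BL6, toward lower levels, was not detectable at this depth. Low control counts do not hide a rise, and no rise of St18 near the 22.6-fold of B16-BL6 was seen.

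**Figure D4:**
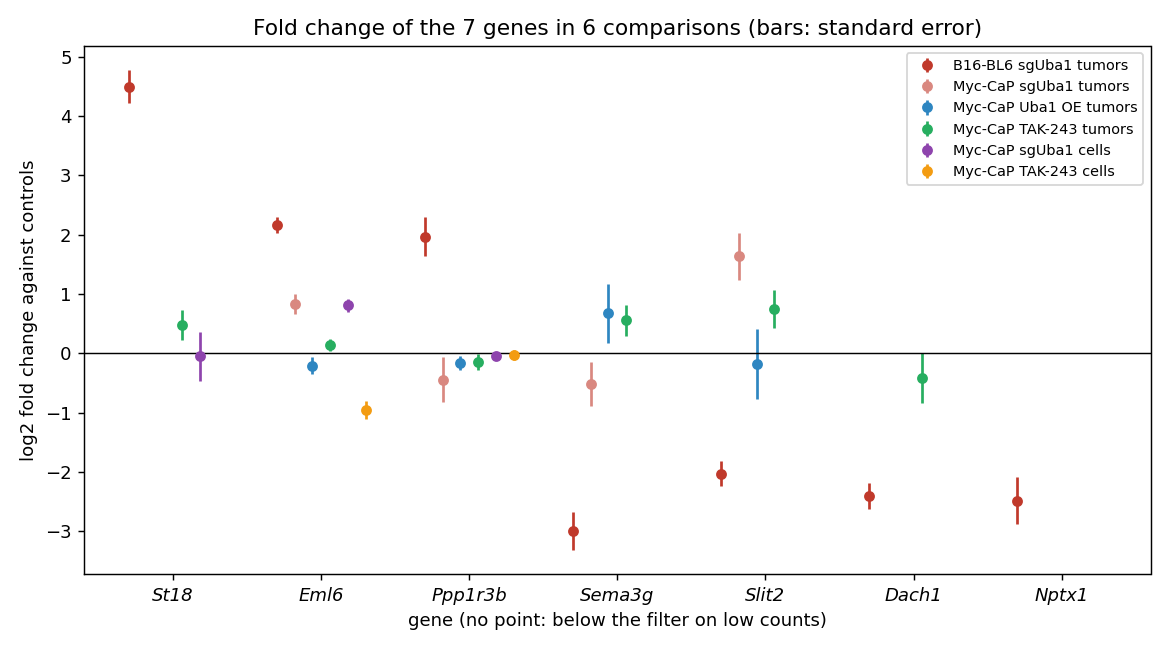
Log2 fold change of the 7 genes in 6 comparisons with bars of 1 standard error, from edgeR's fit, with genes that were not tested left out. In Myc-CaP tumors labelled sgUba1, Eml6 is at 0.84 and Slit2 at 1.64, beside 2.16 and −2.03 in B16-BL6.

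In the Uba1 OE tumors none of the 4 tested members passed, where 0.0269% of 14853 tested genes, 4 genes, did by edgeR's quasi-likelihood test and 2698 had an unadjusted p under 0.05. DESeq2 also called 0 of the members. Uba1 itself was at 631 to 747 CPM against 278 to 310 CPM in the EV tumors (log2 fold change 1.27, adjusted p = 0.00503). Eml6 was at 8.42, 9.63 and 9.95 CPM in the EV tumors and at 8.03, 8.19, 8.64 and 7.39 CPM in the Uba1 OE tumors, with 1 of 4 inside the EV range (log2 fold change −0.21, SE 0.14, adjusted p = 0.458). Slit2 was at 1.20, 2.49 and 3.07 CPM and at 0.397 (0.3965), 1.66, 3.59 and 2.25 CPM, so the groups overlapped (log2 fold change −0.17, 95% confidence interval −1.53 to 1.18). Ppp1r3b had a log2 fold change of −0.15 and Sema3g of 0.67, and neither passed.

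In the TAK-243 tumors none of 6 tested members passed, where 0.145% of 17299 tested genes did, and Slit2 was the member with an unadjusted p under 0.05. TAK-243 blocks the activity of UBA1, and Uba1 RNA differed by −0.06 on the log2 scale in these tumors. Slit2 was at 1.02 to 1.92 CPM (median 1.44) in the 6 Vehicle tumors and at 3.21, 4.45, 1.301, 1.43 and 1.68 CPM in the TAK-243 tumors. Tumors 1 and 2 were above all Vehicle tumors and the other 3 were among them (log2 fold change 0.75, SE 0.32, adjusted p = 0.296, edgeR). On the log2 scale Sema3g differed by 0.56 (adjusted p = 0.338), St18 by 0.48 (adjusted p = 0.391), Eml6 by 0.14 (adjusted p = 0.558), Ppp1r3b by −0.14 and Dach1 by −0.42. For Eml6 the 95% confidence interval ran from −0.09 to 0.38, which leaves out the 0.84 of the tumors labelled sgUba1. The difference between these 2 effects was not tested.

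In cultured Myc-CaP cells there are no cells of a host mouse, and 3 members were tested in the sgUba1 experiment. Eml6 was at 3.47 and 3.50 CPM in NC cells and at 3.68 and 2.97 CPM in NC cells with IFN-γ. In sgUba1 cells it was at 6.12 and 5.50 CPM, and with IFN-γ at 5.51 and 6.73 CPM. All 4 sgUba1 libraries were above all 4 NC libraries, and the log2 fold change averaged over both IFN-γ states was 0.81 (SE 0.11, 95% confidence interval 0.58 to 1.05, adjusted p = 8.39e-05, edgeR). Here 44.3% of 15530 tested genes passed and 34.3% did not overlap, so Eml6, as 1 of 3 tested members, passed against a high background. The Eml6 change was 0.74 without IFN-γ (adjusted p = 0.00380) and 0.89 with it (adjusted p = 6.90e-04). Uba1 had a log2 fold change of −0.999 in these cells.

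St18 and Ppp1r3b did not pass in the sgUba1 cells. Ppp1r3b had a log2 fold change of −0.04 (95% confidence interval −0.15 to 0.07), which leaves out the size seen in B16-BL6. St18, at 2 to 22 counts over the 16 cell libraries, had a log2 fold change of −0.05 averaged over both IFN-γ states. Its 95% confidence interval of −0.95 to 0.85 leaves out the 4.50 seen in B16-BL6. The St18 change was −0.92 (SE 0.52) without IFN-γ and 0.82 (SE 0.62) with it, and neither passed. Sema3g had 0 to 2 counts, Slit2 0 to 4, Nptx1 0 to 3 and Dach1 0 in all 16 cell libraries, so none of the 4 genes that were lower in B16-BL6 could be compared in culture.

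TAK-243 moved Eml6 in the other direction in culture. Eml6 was at 5.30 and 5.56 CPM in Control cells, at 5.84 (5.845) and 6.06 CPM with IFN-γ, at 2.64 and 3.21 CPM with TAK-243, and at 3.38 and 2.63 CPM with both. All 4 treated libraries were below all 4 untreated ones (log2 fold change −0.95, SE 0.15, 95% confidence interval −1.26 to −0.64, adjusted p = 1.48e-06, edgeR). In this experiment 74.6% of 14551 tested genes passed and 62.6% did not overlap. Ppp1r3b, the other tested member, had a log2 fold change of −0.02. Uba1 RNA was higher with TAK-243 in these cells (log2 fold change 0.29, adjusted p = 3.58e-13, edgeR).

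A fit of all 16 cell libraries, added after the data had been seen, tested the difference between the sgUba1 and the TAK-243 effect. For Eml6 the effects differed by 1.78 on the log2 scale (SE 0.17, 95% confidence interval 1.42 to 2.15, adjusted p = 2.13e-08, edgeR), and leaving out 1 library at a time gave 1.70 to 1.89. Of 15708 tested genes 64.2% differed in this way. For Ppp1r3b the difference was −0.01 (95% confidence interval −0.23 to 0.22). Each effect was taken against the control cells of its own experiment, and these controls differed in Eml6. Over both IFN-γ states the mean was 3.40 CPM in NC cells and 5.96 CPM in sgUba1 cells. It was 5.69 CPM in the cells without TAK-243 of the other experiment. The sgUba1 cells were thus near the cells without TAK-243, and the NC cells were lower. CPM were scaled within each experiment, and the difference between the controls was not tested.

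IFN-γ alone passed for none of the tested members. In NC cells 0 of 3 passed, where 3.88% of all tested genes did by edgeR, and St18 had an unadjusted p of 0.0134 (log2 fold change −1.69, adjusted p = 0.114). In Control cells 0 of 2 passed, where 29% did.

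**Figure D5:**
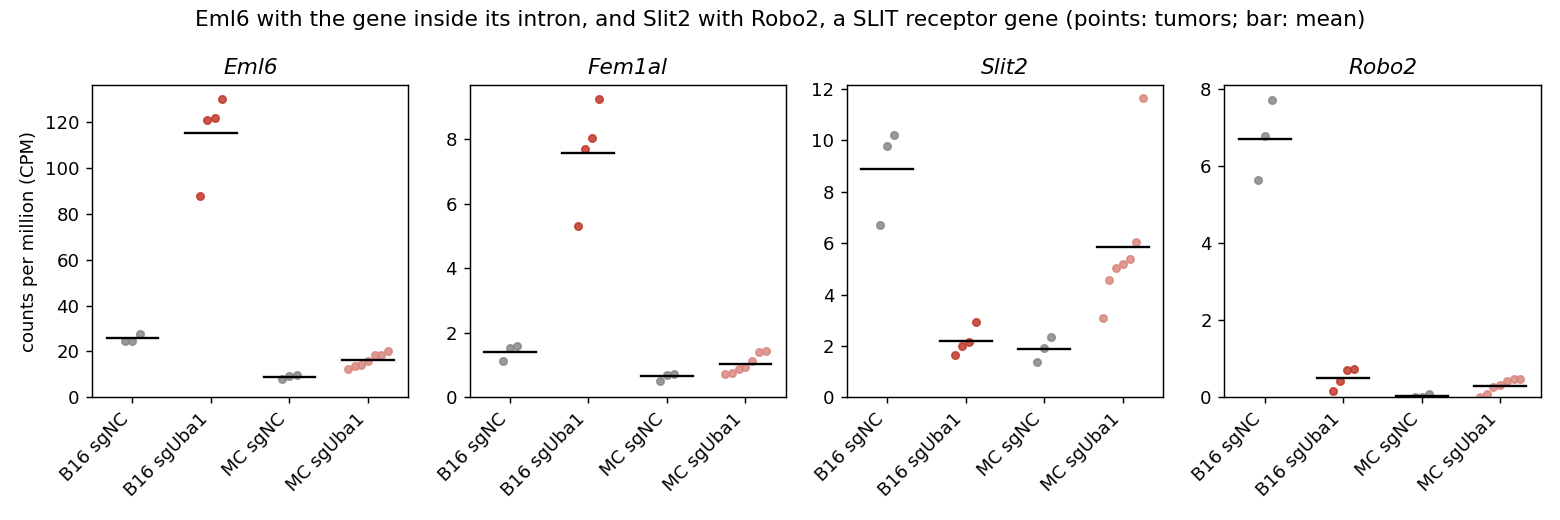
Levels of Eml6 with the gene nested in it, Fem1al, and of Slit2 with Robo2, a SLIT receptor gene, in CPM, in B16-BL6 and Myc-CaP (MC) sgNC and sgUba1 tumors, with 1 point per tumor and a bar at the mean. In B16-BL6 sgUba1 tumors Eml6 and Fem1al are both higher (87.9 to 129.9 CPM and 5.31 to 9.23 CPM) and Slit2 and Robo2 are both lower (1.66 to 2.93 CPM and 0.168 to 0.735 CPM) than in the control tumors.

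The relatives of Eml6 differed among themselves in cells. In sgUba1 cells 4 of 6 tested EML genes rose, Eml6, Eml1 (log2 fold change 0.64), Eml4 (0.20) and Eml5 (0.16), and Eml3 fell (−0.49), where 44.3% of all tested genes passed. In TAK-243 cells Eml5 rose (1.41) and 4 fell, Eml6, Eml1 (−0.57), Eml3 (−0.30) and Eml4 (−0.83), where 74.6% of all tested genes passed. In Myc-CaP tumors labelled sgUba1, where 3.04% of all tested genes passed, 2 of 6 tested EML genes rose, Eml6 and Eml4 (0.71, adjusted p = 0.0386, edgeR). In these tumors 0 of 7 tested SLIT-ROBO genes passed, Slit2 included, and 1 of 14 class 3 semaphorins and receptors fell, Sema3f, from a mean of 212 to 39.1 CPM (log2 fold change −2.43, adjusted p = 0.0199). Sema3f encodes a secreted repellent cue like Sema3g, and it was not among the genes that fell in B16-BL6. None of 10 tested glycogen genes passed. The Eml4 and Sema3f calls in these tumors were not examined with 1 tumor left out, where calls over all genes ran from 10 to 692.

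For each of the 7 genes, the 3 genes with the most similar pattern over the 16 group means were found among 15313 genes by Pearson's r of log2 CPM, a description over groups from 2 models and several experiments. For Eml6 the first was Fem1al (r = 0.961), the gene inside it, followed by Prom1 (0.943) and Bend6 (0.929). For Sema3g, Abca8a (0.975), Adam12 (0.969) and Dach1 (0.968) were the most similar, and the pair Sema3g and Dach1 was chosen for lower levels in B16-BL6 sgUba1 tumors, 1 of the 16 groups. Adam12 (0.978) also stood beside Dach1, with Il15 (0.979) and Hspb8 (0.977). Slit2 was most similar to Il3ra (0.979), Sorcs2 (0.978) and Fgd2 (0.977). St18 was most similar to Nlrp4c (0.953), Gm14761 (0.949) and Gm14762 (0.906), Ppp1r3b to Itpr3 (0.974), Tmod4 (0.971) and Ikzf4 (0.951), and Nptx1 to Prelid2 (0.967), A530016L24Rik (0.959) and Crmp1 (0.953).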

How the data were processed

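Poly-A RNA was sequenced per the labels, while the study's methods describe digestion of ribosomal RNA. The files deposited by the authors hold expected counts, of which 31.879% of values were not whole, and TPM, corrected for gene length. The submitters' processing notes name kallisto and mm10, with versions not given in the sources used here. Depth was 26347900 to 35693100 counts in B16-BL6 tumors, 8651960 to 35047000 in Myc-CaP tumors and 12860800 to 38032300 in cells. Groups came from the labels alone.

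Counts were rounded, filtered with filterByExpr, scaled by TMM and tested with edgeR 4.0.16 (quasi-likelihood, Benjamini-Hochberg over all genes tested, threshold 0.05) in R 4.3.3. Each tumor experiment was fitted alone, and the 8 libraries of each cell experiment together. CPM use the TMM factors. The design had assumed counts of whole reads, and the same test was kept for rounded estimates. The scripts were first tested on simulated data.

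The members and gene lists were chosen with earlier results of these data known. Named genes were the members, Uba1, up to 4 called genes per list and direction, and the 3 most similar genes per member. Robo1, Fem1al and Rtn4 were chosen after their values were seen. Positions came from GENCODE M21 on GRCm38, where 39142 of 40077 gene IDs matched with their version. Strand was not used in reading overlaps, as whether counting used it is not given in the sources used here.

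Alternatives were DESeq2 1.42.0, limma 3.58.1 (voom), RLE scaling, no filter, at least 10 counts in every library, log2(TPM + 1) and log2(TPM + 0.1) with limma, Bonferroni adjustment, a replicate block, other sets of libraries in the fit, and each library left out in turn. No pair among 75 pairs of replicates held identical values.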

Additional observations from a re-analysis of the deposited data

Results flagged for a closer look

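In a comparison of each group's highest and lowest value with the rest of the group (Dixon's test at its 95% critical value), 3 of 35 tests gave a value that stood apart, where chance gives about 1 in 20. Eml6 was at 7.12 CPM in Vehicle tumor 1 and at 8.94 to 10.2 CPM in the other Vehicle tumors. Dach1 was at 0.654 CPM in TAK-243 tumor 5 and at 0.211 to 0.290 CPM in the other TAK-243 tumors. Nptx1 was at 2.04 CPM in Uba1 OE tumor 3 and at 0.297 to 0.390 CPM in the other Uba1 OE tumors.

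Slit2 lay below the controls in B16-BL6 sgUba1 tumors and above them in Myc-CaP tumors labelled sgUba1, where the change did not pass (adjusted p = 0.0515, edgeR). The difference between its change in B16-BL6 and in Myc-CaP tumors labelled sgUba1 was −3.48 in mean log2 CPM, with every sgUba1 library of each model outside its controls on opposite sides, and this difference was not tested.

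Against the controls of its own experiment, Eml6 was higher in sgUba1 cells and lower in TAK-243 cells. The 2 changes in mean log2 CPM differed by 1.72, and the test of that difference in a fit of all 16 cell libraries gave 1.78 (adjusted p = 2.13e-08, edgeR). In that fit 64.2% of 15708 tested genes differed. The mean of Eml6 was 3.40 CPM in NC cells and 5.69 CPM in the cells without TAK-243, and this difference between controls was not tested.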

How the results depend on the processing

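The count of members called in Myc-CaP tumors labelled sgUba1 was 1. It was 2 by DESeq2 and with at least 10 counts in every library, 0 with a replicate block and with Bonferroni adjustment, and 0 to 2 when 1 tumor was left out. In sgUba1 cells 1 was called and 0 with Bonferroni adjustment. For IFN-γ in NC cells 0 were called and 0 to 1 when 1 library was left out (without NC replicate 1, St18 at −2.12, adjusted p = 0.0325, edgeR). No value that changed sign was called in the main analysis. Ppp1r3b in Myc-CaP tumors labelled sgUba1 was 0.15 with the replicate block. Slit2 in Uba1 OE tumors was 0.12 without EV 3 and 0.16 without Uba1 OE 1 (−0.67 to 0.16 when 1 tumor was left out). St18 in sgUba1 cells was 0.82 with IFN-γ only, beside −0.92 without IFN-γ and −0.05 in the main analysis. It was 0.29, 0.04 and 0.17 without NC 2, sgUba1 2 and sgUba1 plus IFN-γ 2 (−0.31 to 0.29 over such fits). Ppp1r3b in TAK-243 cells was 0.0385 with log2(TPM + 1), 0.0439 with log2(TPM + 0.1), 0.0104 with at least 10 counts, 0.0281 with IFN-γ only, 0.0013 without Control 2 and 0.0469 without TAK-243 plus IFN-γ 2 (−0.157 to 0.0469 over such fits). Under IFN-γ, Eml6 was 0.0831 in NC cells without NC plus IFN-γ 2 (−0.226 to 0.0831 over such fits), and in Control cells Eml6 was −0.0485 and −0.0897 and Ppp1r3b −0.0825 and −0.10 with log2(TPM + 1) and log2(TPM + 0.1). In B16-BL6, log2(TPM + 1) gave a smaller size for the low genes, with St18 at 2.66, Ppp1r3b at 1.04, Sema3g at −2.04, Slit2 at −0.91, Dach1 at −0.92 and Nptx1 at −1.10, so that 5 of the 7 were past 1 in size. The cause of these shifts was not tested.

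Calls over all genes moved more. In B16-BL6 127 genes passed, and 532 by DESeq2, 204 with no filter and 43 to 320 when 1 tumor was left out. In Myc-CaP tumors labelled sgUba1 492 passed, and 1862 by DESeq2, 300 by voom, 254 and 303 on the 2 TPM scales, 2 with the replicate block, 3 with Bonferroni adjustment, 1406 in a fit of all 17 tumors and 10 to 692 when 1 tumor was left out. In Uba1 OE tumors 4 passed, and 723 by DESeq2, 33 with no filter, 0 with the block and 0 to 386 when 1 tumor was left out. In TAK-243 tumors 25 passed, and 558 by DESeq2, 45 with no filter, 8 with the block, 0 with at least 10 counts, 3 with Bonferroni adjustment and 1 to 299 when 1 tumor was left out. In sgUba1 cells 6887 passed and 1596 with Bonferroni adjustment. For IFN-γ, 603 passed in NC cells (292 by RLE, 1460 with no filter, 18 and 30 on the TPM scales, 180 with at least 10 counts, 35 to 2721 when 1 library was left out) and 4216 in Control cells (2651 by DESeq2).

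Correlations between same-numbered samples were low or mixed. The deviations of same-numbered B16-BL6 tumors correlated at −0.05 to 0.16, with 2 of 3 pairs over 0.1, and 0 of 3 pairs were over 0.1 in the Myc-CaP sgRNA tumors. In the TAK-243 tumors they ran from −0.18 to 0.31, with 1 of 5 pairs over 0.1. The range was −0.02 to 0.09 in the Uba1 OE tumors, 0.002 to 0.07 in the sgUba1 cells and −0.02 to 0.02 in the TAK-243 cells. The block was therefore used only as an alternative, and a pairing is not excluded. Low counts limit St18, Dach1 and Nptx1 in the Myc-CaP sgRNA and OE tumors, which were also the least deep (8651960 to 14168200 counts), Nptx1 in the TAK-243 tumors, and Sema3g, Slit2, Dach1 and Nptx1 in cells. For St18 they would hide a fall, but not a rise of the size seen in B16-BL6.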

Other observations

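The 2 deposited scales gave different pictures of single libraries for low genes. St18 had 6 counts in Uba1 OE tumor 4 but 0.763 TPM, and Slit2 had 22 counts in EV tumor 2 but 2.20 TPM.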
